A study of Mus musculus with 12 samples.

Results

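The genes described here encode ephrins and their Eph receptors, Slits and their Robo receptors, class 3 semaphorins with neuropilins and plexins, and netrin 1 with its receptors, together with the adhesion molecule Ncam1. They were listed by family and not ranked by a measured value, but with earlier results of these data known. Counts of calls among them beside those over all genes are therefore descriptive. The 41 gene symbols were matched to the Ensembl identifiers of the deposited data, and all 41 were found among 53465 genes. RNA was sequenced from mouse forelimb buds in 12 libraries, 3 in each of 4 groups, to find the genes that depend on the transcription factors TBX3 and HAND2. The group labelled Tbx3_del holds buds with the Tbx3ΔVenus allele on both copies of the gene, in which a Venus reporter with a transcription stop sits at the Tbx3 start codon. It was compared with wild-type buds (Tbx3_WT) of the same age, E9.75 to E10 with 28 to 31 somites. The group Hand2_del holds Prrx1-Cre;Hand2Δ/Δc buds, and it was compared with Prrx1-Cre;Hand2+/+ buds (Hand2_WT) at E10 to E10.25 with 31 to 33 somites. Prrx1-Cre, active in limb mesenchyme, is thus carried by both groups of the Hand2 series, and it is not named for the Tbx3 series. All mice were Swiss albino, and 1 pair of buds made 1 replicate. The labels do not say whether replicates came from separate litters, so p-values measure the spread between these bud pairs. Age, allele and sequencing depth differ together between both series.

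These families were first studied as cues that steer growing axons, and they also sort cells and shape vessels and mesenchyme. EphA receptors mainly bind ephrin-A ligands anchored to the membrane by a lipid, EphB receptors mainly bind transmembrane ephrin-B ligands, and contact often makes cells repel each other. Slits and class 3 semaphorins are secreted and mostly repel cells that carry Robo receptors or neuropilin and plexin complexes, whereas netrin 1 attracts through DCC and repels through UNC5 receptors. In the limb bud, where axons and vessels enter a field of mesenchyme, such cues are known to guide both.

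Depth was 23.3 to 31.8 M (1e6) counts per library in the Tbx3 series and 60.2 to 68.6 M in the Hand2 series. Hand2 was almost lost from the Hand2_del libraries, with 0.187, 2.21 and 0.384 CPM (counts scaled to 1 M in each library), against 119.6, 120.3 and 125.7 CPM in the Hand2_WT libraries. Tbx3 had 80.6, 79.3 and 73.3 CPM in the libraries labelled Tbx3_del, against 78.0, 77.3 and 79.3 CPM in the Tbx3_WT libraries, so its count does not check that label. The limb mesenchyme markers, such as Prrx1 and Tbx5, were all detected. Their summed level was 1736 to 1863 CPM in the libraries labelled Tbx3_del, lower without overlap than 1866 to 1928 CPM in Tbx3_WT. It was 2005 to 2398 CPM in Hand2_del, higher without overlap than 1825 to 1951 CPM in Hand2_WT. Of the libraries labelled Tbx3_del, replicates 1 and 2 were male by Xist and Y-linked counts and all 3 Tbx3_WT libraries were female; replicates 1 and 3 of Hand2_del and replicate 3 of Hand2_WT were male. One library stood apart, Hand2_del replicate 1, with 5.37% of its counts on CT010467.1.

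All 41 genes had enough counts to be tested in each comparison. Set side by side as CPM per kb of exon, group means spread widely. Ephb4, the venous receptor of ephrin-B2, had the highest level, with 51.1 CPM per kb in the group labelled Tbx3_del, 52.4 in Tbx3_WT, 56.5 in Hand2_del and 54.4 in Hand2_WT. Efna2 led the ephrin-A ligands, at 44.6, 46.0, 46.0 and 47.7 CPM per kb in the same order. The leaders of the other families were Epha4, a receptor known for the dorsal choice of limb motor axons, Efnb1 or Efnb2, Slit3, Robo1, Sema3f, Nrp2, Plxna1 or Plxnd1, and Unc5b. At the other end stood Dcc, Sema3e, Epha5, Epha8, Slit1 and Ephb1, all under 1 CPM per kb in each group. Within groups of 3 libraries, the coefficient of variation of a member had a median of 9.87% in the group labelled Tbx3_del, 9.76% in Tbx3_WT, 8.01% in Hand2_del and 11.4% in Hand2_WT.

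**Figure D1:**
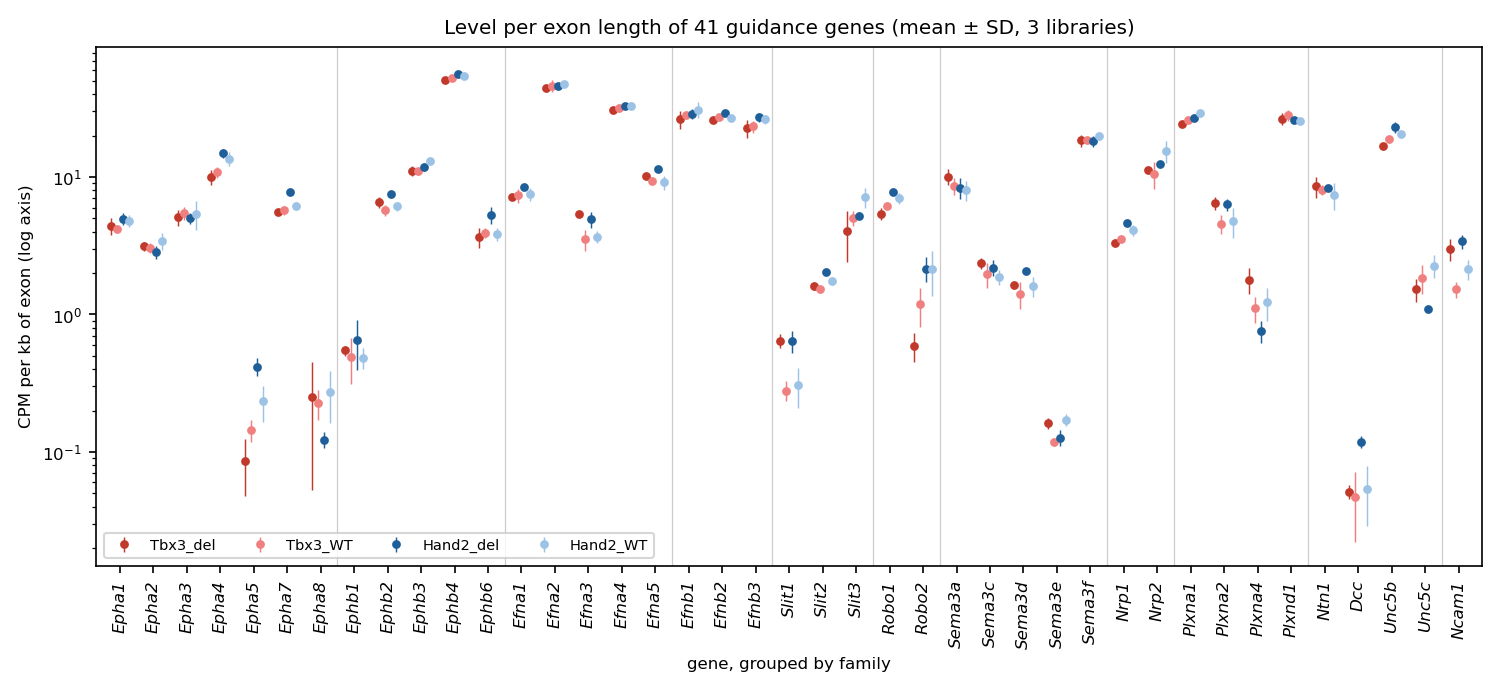
Mean level of each of the 41 guidance genes in CPM per kb of exon (log axis), by family, in the 4 groups of 3 libraries, with points for the mean and lines for the SD. Ephb4 and Efna2 lie at the top and Dcc and Sema3e near the bottom in every group.

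In the Tbx3 comparison 2 of the 41 genes rose and 0 fell (edgeR's quasi-likelihood test, adjusted p under 0.05). The 2 that rose were Slit1, a secreted repellent for Robo-bearing cells, and Ncam1, a homophilic adhesion molecule of neurons and mesenchyme. The share edgeR called among all 15130 genes tested was 1.01%, in the upward direction 0.727% and in the downward direction 0.284%. An unadjusted edgeR p under 0.05 was found for 8 of the 41 and for 2159 of all 15130. DESeq2 called 6 of the 41 and 551 of all genes. In the Hand2 comparison the same 2 genes rose together with Epha7, Ephb2, Efna5 and Slit2, and Unc5c fell, so that 7 of 41 were called against 10.5% of 17488 genes tested. In the upward direction 6 of 41 were called, where the share over all genes was 4.68%, and in the downward direction 1 of 41, where it was 5.82%. The median log2 fold change of the 41 genes was -0.02 in the Tbx3 comparison and 0.12 in the Hand2 comparison, and over all genes tested it was -0.003 and 0.01. These are changes in RNA from whole buds, in which fewer cells of a type and less RNA per cell cannot be told apart.

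**Figure D2:**
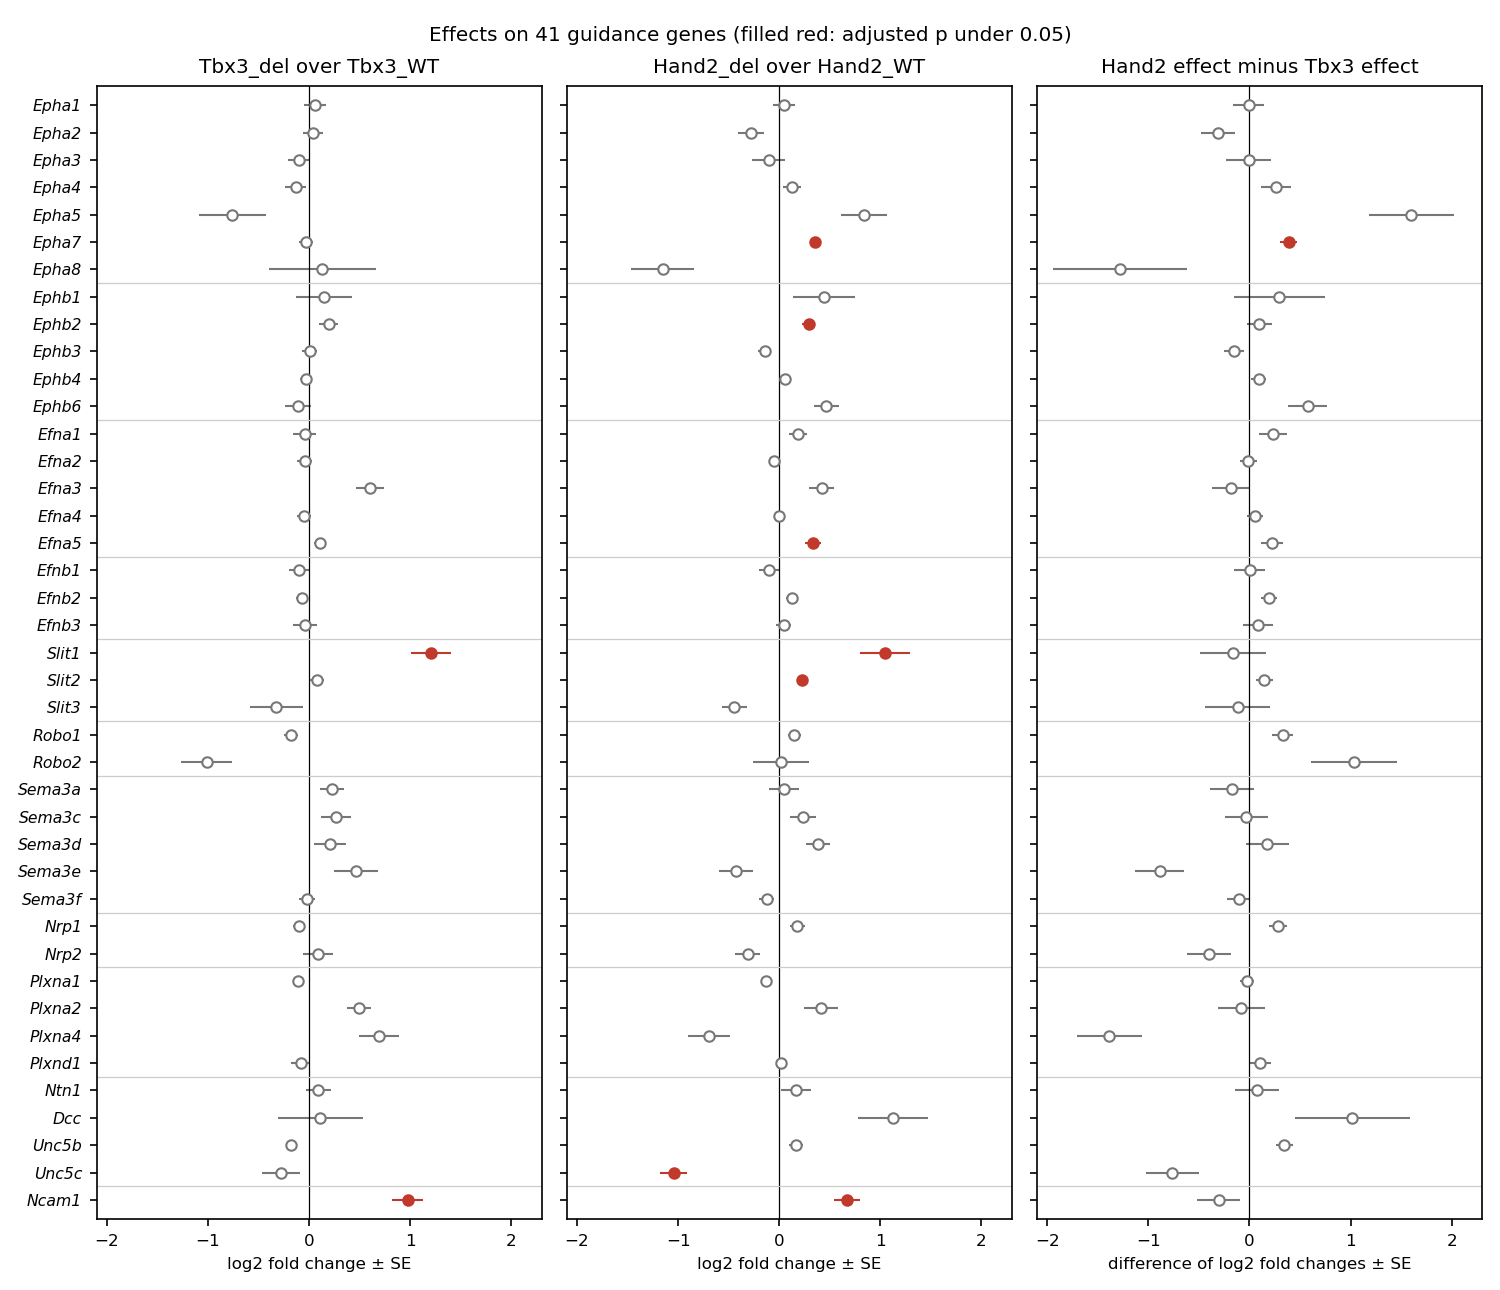
Log2 fold change of each of the 41 guidance genes, deficient over wild type, in the Tbx3 comparison and in the Hand2 comparison, and the Hand2 effect minus the Tbx3 effect, with lines for the SE and called genes filled in red. Slit1 and Ncam1 lie to the right of 0 in both comparisons, and Unc5c is the called gene to the left of 0 in the Hand2 comparison.

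Slit1 and Ncam1 rose in both comparisons, which share no control library. Across all genes tested in both, 12 of 15089, or 0.0795%, were called higher in both. Slit1 (ENSMUSG00000025020, GRCm38 chromosome 19, 41600257 to 41743665, minus strand) had 3.74, 4.29 and 3.44 CPM in the libraries labelled Tbx3_del, against 1.41, 1.95 and 1.61 CPM in the Tbx3_WT libraries. It had 4.55, 3.23 and 3.62 CPM in the Hand2_del libraries, against 1.32, 2.48 and 1.71 CPM in the Hand2_WT libraries. Every library labelled Tbx3_del or Hand2_del lay above every wild-type library of the same series. The rise was 2.31-fold in the Tbx3 comparison (log2 fold change 1.21, SE 0.195, edgeR adjusted p = 0.0402) and 2.07-fold in the Hand2 comparison (log2 fold change 1.05, SE 0.25, edgeR adjusted p = 0.0449). The effects on Slit1 differed by a log2 value of -0.16 (edgeR adjusted p = 0.845).

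Ncam1 (ENSMUSG00000039542, GRCm38 chromosome 9, 49502136 to 49798925, minus strand) had 25.9, 30.5 and 21.3 CPM in the libraries labelled Tbx3_del, against 14.4, 11.2 and 14.0 CPM in the Tbx3_WT libraries. In the Hand2 series it had 32.9, 26.3 and 29.2 CPM in the Hand2_del libraries, against 16.4, 22.0 and 17.2 CPM in the Hand2_WT libraries. The groups did not overlap in either series. Ncam1 rose 1.96-fold in the Tbx3 comparison (log2 fold change 0.97, SE 0.15, edgeR adjusted p = 0.0364) and 1.59-fold in the Hand2 comparison (log2 fold change 0.67, SE 0.131, edgeR adjusted p = 0.0307), and its effects differed by a log2 value of -0.31 (edgeR adjusted p = 0.493). Of the exon bases of Ncam1, 4.81% are shared with Gm11149 on the opposite strand, which reached at most 0.0741 CPM in any library.

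Both Tbx3 calls sat close to the threshold. Slit1 lost its call without any of the 6 libraries of the Tbx3 series, with adjusted p of 0.104, 0.0964 and 0.128 without Tbx3_WT replicates 1, 2 and 3, and 0.065, 0.147 and 0.104 without Tbx3_del replicates 1, 2 and 3. Ncam1 kept it without Tbx3_del replicate 3 (adjusted p = 0.037) and lost it without the other libraries, at 0.0821, 0.109 and 0.118 without Tbx3_WT replicates 1, 2 and 3 and 0.0596 and 0.109 without Tbx3_del replicates 1 and 2. With sex as a covariate the log2 fold change was 1.05 for Slit1 (edgeR adjusted p = 0.333) and 0.69 for Ncam1 (edgeR adjusted p = 0.29). In limma-voom the adjusted p was 0.0507 for Slit1 and 0.0525 for Ncam1. In the Hand2 comparison Slit1 lost its call without Hand2_WT replicates 1 and 3 (0.115 and 0.148) and Hand2_del replicates 1, 2 and 3 (0.116, 0.0634 and 0.104). Ncam1 lost it there without Hand2_WT replicates 1 and 3 (0.0891 and 0.113) and Hand2_del replicates 1 and 3 (0.086 and 0.0804).

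**Figure D3:**
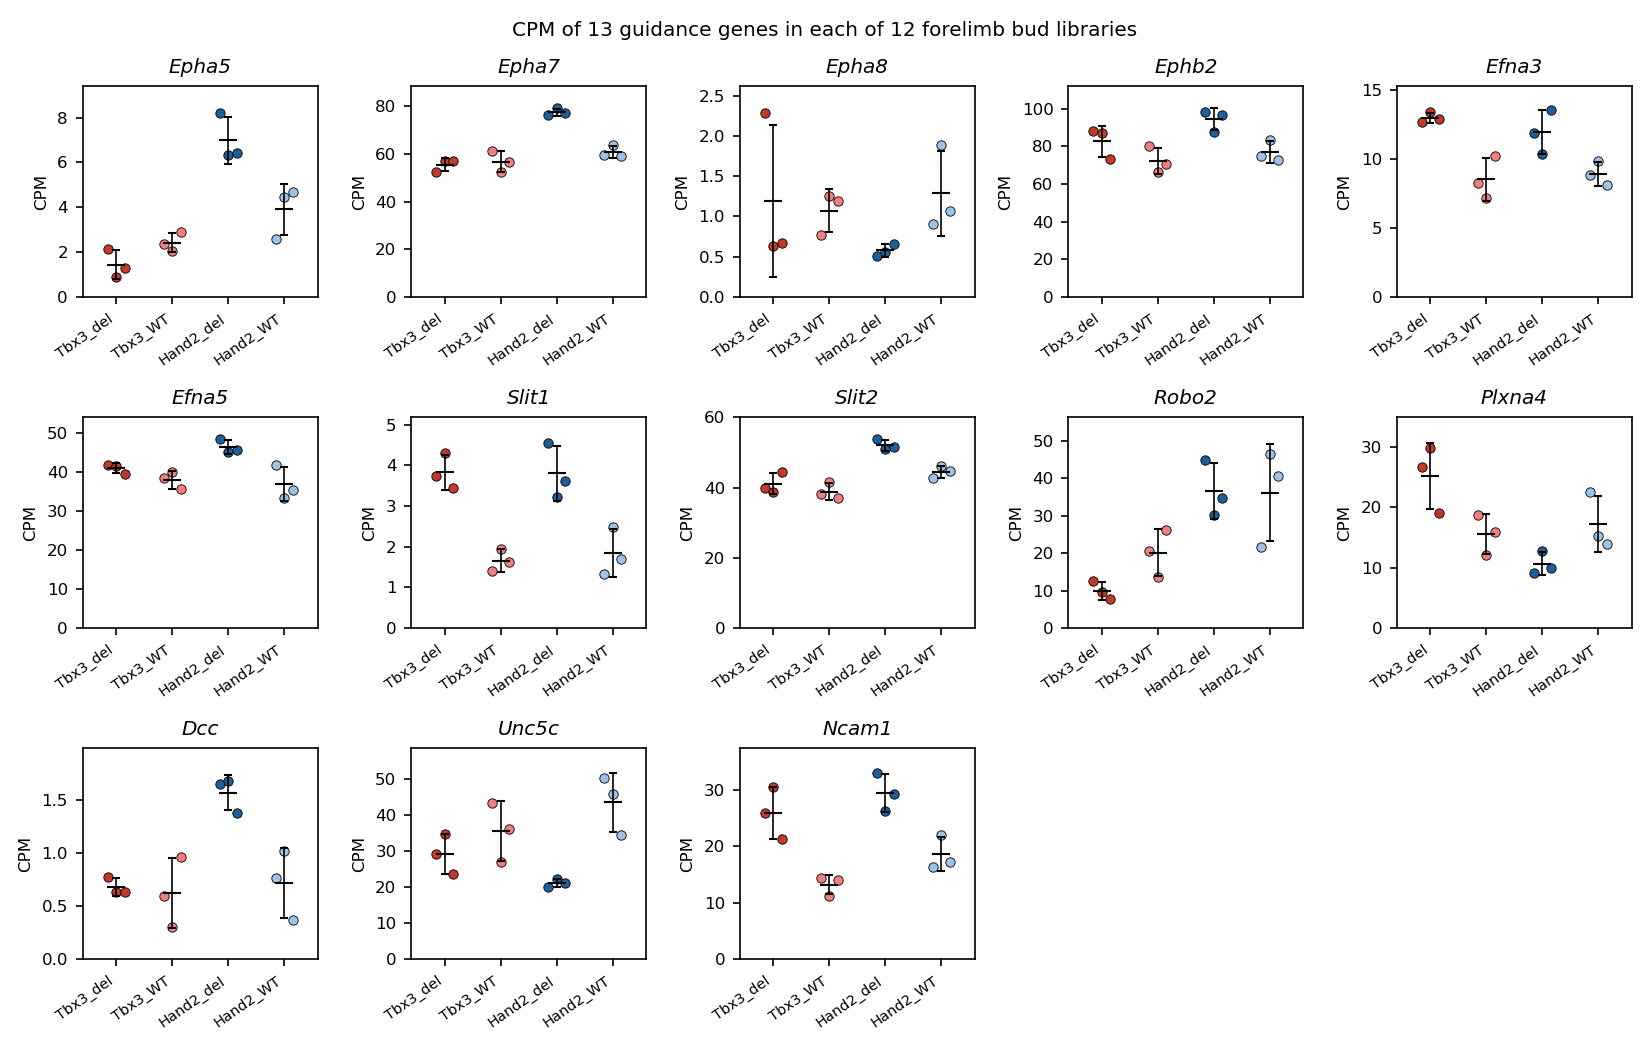
CPM in each library of the 13 guidance genes that were called or whose groups did not overlap at an absolute log2 fold change of at least 0.5, with the Tbx3_del and Hand2_del groups left of their wild-type groups and bars for the mean and SD. Slit1 and Ncam1 lie higher in all 6 libraries labelled Tbx3_del or Hand2_del than in the wild-type libraries of the same series.

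The remaining calls belonged to the Hand2 comparison. Unc5c, a receptor through which netrin 1 repels, showed the largest change among them. Unc5c (ENSMUSG00000059921, GRCm38 chromosome 3, 141465216 to 141834924, plus strand) had 19.9, 22.2 and 21.1 CPM in the Hand2_del libraries, against 50.2, 45.7 and 34.4 CPM in the Hand2_WT libraries. The groups did not overlap, and Unc5c fell 2.06-fold (log2 fold change -1.04, SE 0.134, edgeR adjusted p = 0.01). In the Tbx3 series Unc5c had 29.1, 34.7 and 23.7 CPM in the libraries labelled Tbx3_del, against 43.3, 26.8 and 36.1 CPM in the Tbx3_WT libraries, and these groups overlapped (log2 fold change -0.28, SE 0.188, edgeR adjusted p = 0.553). The effects on Unc5c were not called different by edgeR (log2 difference -0.76, edgeR adjusted p = 0.17), and were by DESeq2 (adjusted p = 0.049).

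Epha7, an Eph receptor of limb mesenchyme and of the nervous system (ENSMUSG00000028289, GRCm38 chromosome 4, 28813131 to 28967499, plus strand), had 76.2, 79.0 and 77.2 CPM in the Hand2_del libraries, against 59.7, 63.5 and 58.9 CPM in the Hand2_WT libraries. All Hand2_del libraries lay above all Hand2_WT libraries, and Epha7 rose 1.28-fold (log2 fold change 0.35, SE 0.0378, edgeR adjusted p = 0.005). In the Tbx3 series it had 52.2, 57.0 and 57.0 CPM in the libraries labelled Tbx3_del, against 61.2, 52.5 and 56.4 CPM in the Tbx3_WT libraries, and these groups overlapped (log2 fold change -0.03, SE 0.0684, edgeR adjusted p = 0.859). Epha7 was the 1 gene of the 41 whose effect was called different between both series, against 1.68% of 17360 genes tested, 0.789% higher and 0.893% lower (log2 difference 0.39, SE 0.0814, edgeR adjusted p = 0.0406). Unc5c and Epha7 were the calls of the Hand2 comparison that held without each of its 6 libraries in turn, with adjusted p between 0.00202 and 0.0408 for Unc5c and between 0.00675 and 0.0375 for Epha7. They also held with sex as a covariate, at 0.0117 for Unc5c and 0.0132 for Epha7. The call of the difference for Epha7 ended without 10 of 12 libraries: Tbx3_WT replicates 1 and 3 (0.075 and 0.0807), Tbx3_del replicates 1, 2 and 3 (0.0622, 0.0735 and 0.0772), Hand2_WT replicates 1 and 3 (0.102 and 0.1) and Hand2_del replicates 1, 2 and 3 (0.0766, 0.074 and 0.0835). With sex as a covariate it was 0.0652.

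Ephb2, a receptor for ephrin-B ligands, had 98.4, 87.5 and 96.7 CPM in the Hand2_del libraries, against 74.7, 83.4 and 72.8 CPM in the Hand2_WT libraries. Efna5, a ligand of EphA receptors, had 48.4, 45.3 and 45.7 CPM in the Hand2_del libraries, against 41.7, 33.4 and 35.4 CPM in the Hand2_WT libraries. Slit2, a ligand of Robo1 and Robo2, had 53.8, 50.9 and 51.5 CPM in the Hand2_del libraries, against 42.7, 46.0 and 44.7 CPM in the Hand2_WT libraries. In each of the 3 genes all Hand2_del libraries lay above all Hand2_WT libraries, but the changes were small. Ephb2 rose 1.22-fold (log2 fold change 0.29, SE 0.0653, edgeR adjusted p = 0.0402), Efna5 1.26-fold (log2 fold change 0.33, SE 0.0833, edgeR adjusted p = 0.0492) and Slit2 1.17-fold (log2 fold change 0.23, SE 0.0428, edgeR adjusted p = 0.0278). In the Tbx3 series Ephb2 had 88.0, 86.8 and 73.3 CPM in the libraries labelled Tbx3_del, against 79.9, 66.1 and 70.8 CPM in the Tbx3_WT libraries. Efna5 had 41.9, 41.6 and 39.5 CPM in the libraries labelled Tbx3_del, against 38.4, 40.0 and 35.6 CPM in the Tbx3_WT libraries. Slit2 had 40.0, 38.9 and 44.4 CPM in the libraries labelled Tbx3_del, against 38.1, 41.5 and 37.1 CPM in the Tbx3_WT libraries. These groups overlapped in all 3 genes and none of the 3 was called, at log2 fold changes of 0.19 for Ephb2, 0.11 for Efna5 and 0.08 for Slit2. Slit3, the third Slit ligand, had 32.8, 29.7 and 33.0 CPM in the Hand2_del libraries, against 35.1, 45.6 and 49.0 CPM in the Hand2_WT libraries. It lay lower without overlap, in the opposite direction to Slit1 and Slit2, and edgeR with the low-count filter did not call it (log2 fold change -0.44, SE 0.12, edgeR adjusted p = 0.0584). Its groups overlapped in the Tbx3 series (log2 fold change -0.32, SE 0.261, edgeR adjusted p = 0.627). Summed over the 3 Slits, the level was 7.44 to 8.28 CPM per kb in the Hand2_del libraries, against 7.69 to 10.1 in the Hand2_WT libraries, so that the sums overlapped.

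Each of these 3 calls rested on particular libraries. Ephb2 lost its call without Hand2_WT replicates 1 and 3 (adjusted p = 0.123 and 0.14) and Hand2_del replicates 1 and 3 (0.108 and 0.11), Efna5 without Hand2_WT replicates 2 and 3 (0.0749 and 0.16) and Hand2_del replicates 1, 2 and 3 (0.133, 0.0794 and 0.11), and Slit2 without Hand2_WT replicates 1 and 3 (0.0891 and 0.107) and Hand2_del replicates 1 and 3 (0.0767 and 0.0751). With sex as a covariate the adjusted p was 0.0876 for Ephb2, 0.0948 for Efna5, 0.0701 for Slit2, 0.0969 for Slit1 and 0.0707 for Ncam1. Efna5 also lost its call with median-ratio size factors (0.0523) and Ephb2 with counts thinned to the mean depth of the Tbx3 series (0.0571).

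**Figure D4:**
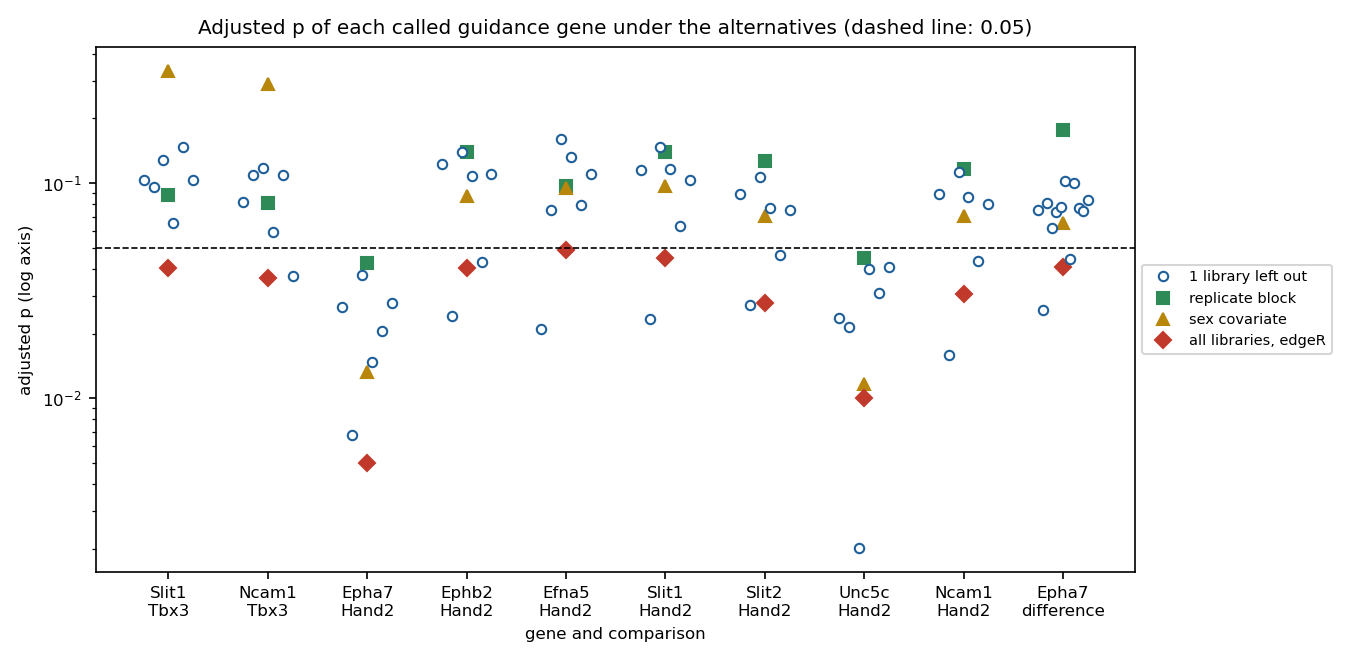
Adjusted p (log axis) of the called guidance genes with all libraries in edgeR, with 1 library left out, with a replicate block and with sex as a covariate; DESeq2, limma-voom and other settings are not drawn. Epha7 and Unc5c of the Hand2 comparison have all their points under the dashed line at 0.05.

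The start regions of the 5 genes called in the Hand2 comparison that have an entry are shown. There Epha7, Ephb2, Efna5 and Slit2 rose and Unc5c fell. The other called genes, Slit1 and Ncam1, have no entry. The windows come from RefSeq (build GRCm38.p6) and run from 250 bases before to 50 bases after a gene start given there. That start can differ from the gene positions given above, and the Unc5c window lies wholly inside the gene as positioned above. Capitals mark matches to the hypoxia core (ACGTG or GCGTG) or the E-box (CANNTG), searched on both strands. For Epha7 the table holds another window starting a few bases later, also without a match.
Epha7, chr4:28812881-28813180, plus strand: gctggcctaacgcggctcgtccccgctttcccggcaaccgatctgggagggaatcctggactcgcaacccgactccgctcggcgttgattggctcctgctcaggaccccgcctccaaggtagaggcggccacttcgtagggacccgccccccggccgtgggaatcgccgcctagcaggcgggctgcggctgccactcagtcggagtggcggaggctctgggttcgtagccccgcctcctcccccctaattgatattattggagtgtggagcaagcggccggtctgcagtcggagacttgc
Ephb2, chr4:136835963-136836262, minus strand: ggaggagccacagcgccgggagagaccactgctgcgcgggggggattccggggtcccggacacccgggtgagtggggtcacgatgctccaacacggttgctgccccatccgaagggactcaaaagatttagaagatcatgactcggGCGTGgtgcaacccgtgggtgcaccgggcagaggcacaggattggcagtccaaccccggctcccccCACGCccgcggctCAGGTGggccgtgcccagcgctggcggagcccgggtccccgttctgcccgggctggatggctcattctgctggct
Efna5, chr17:62881268-62881567, minus strand: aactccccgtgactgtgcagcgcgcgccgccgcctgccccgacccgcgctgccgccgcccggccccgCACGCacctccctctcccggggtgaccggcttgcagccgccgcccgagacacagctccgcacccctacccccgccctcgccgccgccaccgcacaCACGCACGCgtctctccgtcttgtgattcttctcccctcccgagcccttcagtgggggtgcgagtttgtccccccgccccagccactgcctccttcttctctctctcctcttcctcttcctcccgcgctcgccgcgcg
Slit2, chr5:47982905-47983204, plus strand: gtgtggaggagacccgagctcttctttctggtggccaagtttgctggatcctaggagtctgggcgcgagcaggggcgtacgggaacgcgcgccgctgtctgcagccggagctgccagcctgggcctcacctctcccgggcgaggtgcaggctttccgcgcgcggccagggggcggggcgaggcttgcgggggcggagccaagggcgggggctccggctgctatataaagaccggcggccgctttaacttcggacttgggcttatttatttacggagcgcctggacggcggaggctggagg
Unc5c, chr3:141465314-141465613, plus strand: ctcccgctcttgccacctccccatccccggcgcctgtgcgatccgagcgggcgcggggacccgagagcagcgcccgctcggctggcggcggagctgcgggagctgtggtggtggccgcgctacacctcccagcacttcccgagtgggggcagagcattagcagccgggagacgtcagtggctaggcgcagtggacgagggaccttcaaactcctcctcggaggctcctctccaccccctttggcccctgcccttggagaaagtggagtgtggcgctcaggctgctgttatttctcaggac
Ephb2 holds 2 hypoxia cores and 1 E-box and Efna5 holds 3 hypoxia cores, while the Epha7, Slit2 and Unc5c windows hold no match to these motifs, to the T-box core GGTGTGA or to the GLI core CCACCCA. Over the 38 windows of the 33 guidance genes with an entry, 55.3% held a hypoxia core, 44.7% an E-box, 7.89% a GLI core and 5.26% a T-box core. Over all 32851 windows of the table the shares were 43.8%, 72.3%, 9.3% and 3.98% in the same order. The median GC content was 64.7% in the windows of the guidance genes and 52.7% over all windows. An E-box can overlap a hypoxia core, and a match in such a window is a description of its letters.

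A further set of genes had groups that did not overlap and an absolute log2 fold change of at least 0.5 but missed edgeR's threshold. Called or not, genes with such groups made up 5.49% of all genes tested in the Tbx3 comparison and 9.92% in the Hand2 comparison, and 5 and 7 of the 41 guidance genes. Plxna4, a plexin that relays semaphorin 3A signals, lay on opposite sides of wild type in both series. It had 26.7, 29.8 and 19.1 CPM in the libraries labelled Tbx3_del, against 18.7, 12.1 and 16.0 CPM in the Tbx3_WT libraries (log2 fold change 0.69, SE 0.197, edgeR adjusted p = 0.169). It had 9.18, 12.8 and 9.995 CPM in the Hand2_del libraries, against 22.6, 15.3 and 13.9 CPM in the Hand2_WT libraries (log2 fold change -0.69, SE 0.207, edgeR adjusted p = 0.0733). The difference of these effects was not called by edgeR (log2 difference -1.39, SE 0.32, edgeR adjusted p = 0.0572). DESeq2 called Plxna4 in both comparisons and in the difference (adjusted p = 0.0111, 0.00398 and 0.000619), as did edgeR without the low-count filter (0.0258, 0.0499 and 0.0146). The Tbx3 effect was 0.29 on the log2 scale with sex as a covariate (edgeR adjusted p = 0.81), and the Hand2 effect was -0.46 without Hand2_WT replicate 1 (edgeR adjusted p = 0.156).

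Robo2, a Slit receptor, had 12.6, 9.66 and 7.82 CPM in the libraries labelled Tbx3_del, against 20.6, 13.6 and 26.3 CPM in the Tbx3_WT libraries (log2 fold change -1.01, SE 0.255, edgeR adjusted p = 0.13). DESeq2 called Robo2 lower there (adjusted p = 0.00102), as did edgeR without the low-count filter (0.0106). In the Hand2 series Robo2 had 44.9, 30.3 and 34.9 CPM in the Hand2_del libraries, against 21.6, 46.4 and 40.7 CPM in the Hand2_WT libraries, where the groups overlapped (log2 fold change 0.02, SE 0.278, edgeR adjusted p = 0.972), and the difference of the effects was not called (log2 difference 1.03, edgeR adjusted p = 0.244). Summed over Robo1 and Robo2, the Slit receptors had 5.33 to 6.53 CPM per kb in the libraries labelled Tbx3_del, against 6.78 to 7.77 in the Tbx3_WT libraries, and 9.52 to 10.6 in the Hand2_del libraries, against 7.77 to 10.4 in the Hand2_WT libraries. The Robo sums of the Tbx3 series thus lay lower without overlap, and edgeR with the low-count filter called neither receptor gene. The 3 Slits together had 4.705 to 7.87 CPM per kb in the libraries labelled Tbx3_del, against 6.26 to 7.45 in Tbx3_WT. These Slit sums overlapped despite the Slit1 rise. Other family sums also separated in this series. Class 3 semaphorins lay higher (32.2 to 33.4 against 29.9 to 32.1 CPM per kb), and netrin with its receptors lay lower (26.1 to 28.0 against 28.5 to 29.3). Efna3, a ligand of EphA receptors, had 12.7, 13.4 and 12.9 CPM in the libraries labelled Tbx3_del, against 8.28, 7.15 and 10.2 CPM in the Tbx3_WT libraries (log2 fold change 0.60, SE 0.14, edgeR adjusted p = 0.107). In the Hand2 series Efna3 had 11.9, 10.4 and 13.6 CPM in the Hand2_del libraries, against 8.84, 9.86 and 8.12 CPM in the Hand2_WT libraries (log2 fold change 0.42, SE 0.123, edgeR adjusted p = 0.0698). Efna3 lay higher in all 6 libraries labelled Tbx3_del or Hand2_del than in the wild-type libraries of the same series. By edgeR's test of each series it passed the threshold in neither comparison. DESeq2 called it in both (adjusted p = 0.011 and 0.0152), and edgeR called it in the Tbx3 comparison without the low-count filter (0.0378) and in a fit of 12 libraries (0.044). Of the exon bases of Efna3, 14.1% are shared with Gm15998, whose level stayed at or under 0.366 CPM.

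Among members of low level, Epha5, Epha8 and Dcc had non-overlapping groups in the Hand2 series. Epha5, an ephrin-A receptor, had 8.18, 6.35 and 6.42 CPM in the Hand2_del libraries, against 2.59, 4.45 and 4.67 CPM in the Hand2_WT libraries (log2 fold change 0.84, SE 0.231, edgeR adjusted p = 0.0611). Epha8, a related receptor, had 0.509, 0.564 and 0.664 CPM in the Hand2_del libraries, against 0.905, 1.89 and 1.07 CPM in the Hand2_WT libraries (log2 fold change -1.15, SE 0.313, edgeR adjusted p = 0.0588). Dcc, the attractive netrin receptor, had 1.65, 1.68 and 1.37 CPM in the Hand2_del libraries, against 0.762, 1.02 and 0.363 CPM in the Hand2_WT libraries (log2 fold change 1.13, SE 0.348, edgeR adjusted p = 0.0782). The groups did not overlap in any of the 3, with Epha5 and Dcc higher and Epha8 lower in the Hand2_del libraries. None passed the threshold in edgeR, whereas DESeq2 called all 3 (adjusted p = 0.00371 for Epha5, 0.019 for Epha8 and 0.0229 for Dcc). Epha5 was also called by edgeR without the low-count filter (0.0436), and Dcc without Hand2_WT replicate 2 (0.0465). In the Tbx3 series Epha5 had 2.16, 0.884 and 1.3 CPM in the libraries labelled Tbx3_del, against 2.35, 2.04 and 2.88 CPM in the Tbx3_WT libraries (log2 fold change -0.76, SE 0.334, edgeR adjusted p = 0.359). Epha8 had 2.28, 0.631 and 0.667 CPM in the libraries labelled Tbx3_del, against 0.768, 1.26 and 1.19 CPM in the Tbx3_WT libraries (log2 fold change 0.13, SE 0.528, edgeR adjusted p = 0.934). Dcc had 0.773, 0.631 and 0.630 CPM in the libraries labelled Tbx3_del, against 0.598, 0.303 and 0.960 CPM in the Tbx3_WT libraries (log2 fold change 0.11, SE 0.422, edgeR adjusted p = 0.932). The groups of all 3 genes overlapped there, and replicate 1 labelled Tbx3_del lay above the other 5 libraries for Epha8. The largest difference of effects among the 41 genes was that of Epha5, and edgeR did not call it (log2 difference 1.60, edgeR adjusted p = 0.0893), except without replicate 1 labelled Tbx3_del (0.0313), whereas DESeq2 did (adjusted p = 0.00774).

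The other 28 genes were not called by edgeR in either comparison or in the difference. DESeq2 called Plxna2 in the Tbx3 comparison, Nrp2, Ephb6, Sema3d and Slit3 in the Hand2 comparison, and Unc5b and Robo1 in the difference. Without the low-count filter edgeR called Plxna2 in the Tbx3 comparison and Ephb6 and Slit3 in the Hand2 comparison, and with sex as a covariate it called Unc5b in the difference. In the Hand2 comparison edgeR called Ephb6 in a fit of 12 libraries, Nrp2 and Slit3 without Hand2_WT replicate 1, and Robo1 and Sema3d without Hand2_WT replicate 2; without Hand2_del replicate 2 it called Unc5b in the difference. Among Eph receptors and ephrins, log2 fold changes of the remaining members ran from -0.13 for Epha4 to 0.15 for Ephb1 in the Tbx3 comparison and from -0.28 for Epha2 to 0.47 for Ephb6 in the Hand2 comparison. Those of the ephrin-B ligands, which act on EphB receptors and also signal back into their own cell, were between -0.10 and -0.04 in the Tbx3 comparison and between -0.10 and 0.12 in the Hand2 comparison. Plxna2, a plexin that partners neuropilins, lay just under the fold rule in the Tbx3 comparison with groups that did not overlap (log2 fold change 0.50, SE 0.12, edgeR adjusted p = 0.118). The class 3 semaphorins ran from -0.02 to 0.46 in the Tbx3 comparison and from -0.43 to 0.38 in the Hand2 comparison. The extreme in both comparisons was Sema3e, the ligand of Plxnd1, which lay higher than wild type in the libraries labelled Tbx3_del and lower in the Hand2_del libraries (log2 difference of effects -0.89, edgeR adjusted p = 0.0991). Nrp1 and Unc5b lay lower in the libraries labelled Tbx3_del and higher in the Hand2_del libraries than in their wild types, without overlap, at log2 fold changes of -0.10 and 0.18 for Nrp1 and -0.18 and 0.17 for Unc5b. Counted over all 41 genes, groups did not overlap in 6 higher and 5 lower genes of the Tbx3 comparison, where the shares over all genes were 10.7% and 9.95%, and in 14 higher and 5 lower genes of the Hand2 comparison, where they were 18.7% and 19.5%.

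Several of the genes are neighbours, so that their positions were examined. Chromosome 5, which carries Tbx3, holds 7 of the 41, the nearest being Ephb4 at 17.67 Mb from Tbx3, and chromosome 8, which carries Hand2, holds Efnb2 and Nrp1 at 48.66 and 71.03 Mb. Efna1, Efna3 and Efna4 lie on chromosome 3, Ephb2 and Epha8 on chromosome 4 and Robo1 and Robo2 on chromosome 16. Ephb2 rose in the Hand2 comparison while Epha8 was lower without passing edgeR's threshold, and Robo2 and Robo1 had log2 fold changes of -1.01 and -0.18 in the Tbx3 comparison, neither called by edgeR with the low-count filter and Robo2 called by DESeq2.

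Markers of other cells that a bud can hold differed beside these genes. Body wall and coelomic lining markers, such as Wt1 and Gata4, summed to 104 to 161 CPM in the libraries labelled Tbx3_del, against 49.1 to 107 CPM in Tbx3_WT, and to 103 to 138 CPM in Hand2_del, against 51.4 to 79.1 CPM in Hand2_WT. None of 6 tested passed in the Tbx3 comparison, and Gata4 and Tbx18 rose in the Hand2 comparison. Neuron markers summed to 43.1 to 61.3 CPM in the libraries labelled Tbx3_del, against 60.4 to 78.7 CPM in Tbx3_WT, and to 86.6 to 95.0 CPM in Hand2_del, against 74.8 to 80.9 CPM in Hand2_WT. Of the 11 neuron markers Neurod1 was at 0 in all libraries of both wild-type groups, and Isl1 and Stmn2 rose in the Hand2 comparison. The neuron sums were thus higher without overlap in Hand2_del, and overlapped in the Tbx3 series. Neural crest and Schwann markers summed to 63.5 to 88.1 CPM in the libraries labelled Tbx3_del, against 46.4 to 54.1 CPM in Tbx3_WT, and to 44.6 to 52.0 CPM in Hand2_del, against 33.5 to 45.6 CPM in Hand2_WT. Endothelial markers summed to 376 to 437 CPM in the libraries labelled Tbx3_del, against 374 to 411 CPM in Tbx3_WT, and to 389 to 426 CPM in Hand2_del, against 369 to 376 CPM in Hand2_WT, and Cdh5 rose among its 12 markers. Macrophage markers summed to 5.18 to 5.90 CPM in the libraries labelled Tbx3_del, against 1.41 to 3.42 CPM in Tbx3_WT, and to 6.36 to 11.8 CPM in Hand2_del, against 3.11 to 5.23 CPM in Hand2_WT. These sums were higher without overlap in both series. Of the 8 macrophage markers, 2 had enough counts to be tested in the Tbx3 comparison and 0 were called. All 8 were tested in the Hand2 comparison, where C1qb and Ptprc rose. Somite markers summed to 81.8 to 102 CPM in the libraries labelled Tbx3_del, against 64.6 to 68.5 CPM in Tbx3_WT, and to 69.3 to 92.5 CPM in Hand2_del, against 54.6 to 86.3 CPM in Hand2_WT. Muscle progenitor markers summed to 120 to 145 CPM in the libraries labelled Tbx3_del, against 124 to 138 CPM in Tbx3_WT, and to 135 to 138 CPM in Hand2_del, against 104 to 120 CPM in Hand2_WT, with none of 6 called. Epithelial and apical ridge markers summed to 358 to 374 CPM in the libraries labelled Tbx3_del, against 346 to 370 CPM in Tbx3_WT, and to 303 to 335 CPM in Hand2_del, against 349 to 377 CPM in Hand2_WT. Of these 12 markers Cldn6 rose in the Tbx3 comparison and Fgf8 fell in the Hand2 comparison. The groups overlapped for body wall, endothelial, muscle and epithelial markers of the Tbx3 series and for neural crest and somite markers of the Hand2 series, and red cell markers overlapped in both. In Hand2_del the muscle sums were thus higher and the epithelial sums lower without overlap. Of the 10 limb mesenchyme markers, edgeR called Tbx5 lower in the Tbx3 comparison, or 10% beside 1.01% of all genes. In the Hand2 comparison it called Meis1, Prrx2, Fgf10 and Twist1, 3 higher and 1 lower, or 40% beside 10.5% of all genes. The part of these cells in the changes of the guidance genes was not tested.

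Tissue state differed as well. Low-oxygen and glycolysis genes summed to 4660 to 6530 CPM in the libraries labelled Tbx3_del, against 3165 to 3568 CPM in Tbx3_WT, with 11 of 13 tested genes higher, and to 2095 to 2670 CPM in Hand2_del, against 2616 to 2894 CPM in Hand2_WT, with 1 of 14 higher. Whether low oxygen bears on Slit1 or Ncam1 was not tested. SHH and posterior genes summed to 446 to 591 CPM in the libraries labelled Tbx3_del, against 724 to 772 CPM in Tbx3_WT. There 3 of 14 genes fell, Prdm1, Ptch1 and Ets2. The sums were 267 to 307 CPM in Hand2_del, against 757 to 881 CPM in Hand2_WT, where 12 of 14 genes fell. All 14 had negative log2 fold changes in both comparisons. The part of these states in the guidance gene changes was not tested.

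Other ligands and receptors of the same pathways were read from a list of 43 genes. In the Tbx3 comparison 35 were tested and 0 were called by edgeR or DESeq2. Of the 35, 6 had an unadjusted edgeR p under 0.05, as did 2159 of all 15130 genes tested. In the Hand2 comparison 38 were tested, 2 rose and 1 fell. That is 7.89% of those tested in the Hand2 comparison beside 10.5% of all genes, and 0 beside 1.01% in the Tbx3 comparison. Their median log2 fold change was 0.05 in the Tbx3 comparison and 0.12 in the Hand2 comparison. L1cam, an axonal adhesion molecule, had 6.60, 6.29 and 6.13 CPM in the Hand2_del libraries, against 2.97, 3.13 and 3.04 CPM in the Hand2_WT libraries (log2 fold change 1.06, SE 0.0896, edgeR adjusted p = 0.00206). The groups did not overlap, and L1cam kept its call in all 14 alternatives run. Ntn4, a secreted netrin, rose by a log2 value of 0.40 (edgeR adjusted p = 0.0448), and lost its call without any 1 of the 6 libraries (0.072 to 0.14). Sema5a, a transmembrane semaphorin, fell by 0.33 on the log2 scale (edgeR adjusted p = 0.011), and lost its call without Hand2_WT replicate 3 (0.0604).

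Ntng1, a membrane-anchored netrin, was the 1 gene of this list whose effects were called different between both series. That is 2.63% of the 38 tested, near the 1.68% of all genes. It had 3.30, 3.57 and 3.48 CPM in the libraries labelled Tbx3_del, against 6.66, 4.59 and 4.69 CPM in the Tbx3_WT libraries. It had 5.36, 5.39 and 4.56 CPM in the Hand2_del libraries, against 4.05, 2.94 and 3.89 CPM in the Hand2_WT libraries. Ntng1 lay below wild type in the first series and above it in the second, without overlap (log2 difference 1.12, SE 0.239, edgeR adjusted p = 0.0422). The call of its difference was kept without Tbx3_WT replicate 2 (0.0489) and lost without any other library (0.0591 to 0.1). In total it was lost in 14 of 19 alternatives. These included limma-voom (adjusted p = 0.0585), and edgeR with sex as a covariate (0.0683) or a replicate block (0.17).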

How the data were processed

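RNA of mouse forelimb buds was sequenced in 12 libraries (4 groups of 3). Per the submitters' processing notes, FastQC 0.11.4, STAR 2.5.2 and RSEM 1.3.0 were used on mm10; an annotation release and a strand setting are not stated in them. RSEM expected counts per gene, not normalised, were deposited by the authors. Between 12.5% and 16.2% of values per library were not whole, and all were rounded. Symbols, positions and exon lengths come from GENCODE M21 on GRCm38, the assembly mm10 is made from.

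The groups Tbx3_del and Hand2_del were each tested against their own wild type with edgeR 4.0.16 in R 4.3.3: TMM, filterByExpr (minimum count 10, minimum total 15), quasi-likelihood F test, Benjamini-Hochberg over all genes tested, called under 0.05. Fold changes (log2, deficient over wild type) use a prior count of 0.125, and SE is the fold change over the square root of F. The difference of effects, Hand2 minus Tbx3, was tested in all 12 libraries. CPM are TMM-scaled. On counts simulated with the same dispersion for every gene, 85% (Tbx3) and 90% (Hand2) of genes changed by a log2 of 1 were recovered. These shares need not hold for genes that vary more between libraries. Alternatives used limma 3.58.1 and DESeq2 1.42.0.

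The members and lists were chosen with earlier results of these data known. Per-library values are given for called members and for those with non-overlapping groups and an absolute log2 fold change of at least 0.5. Of the wider lists, called genes are named. The labels do not say whether replicate numbers pair the samples, and the main fits used no pairing.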

Additional observations from a re-analysis of the deposited data

Results flagged for a closer look

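Epha7 drew attention because its change differed between both series by a test of the difference itself. The Hand2 effect minus the Tbx3 effect was 0.39 on the log2 scale (SE 0.0814, edgeR adjusted p = 0.0406). This call was kept without Tbx3_WT replicate 2 or Hand2_WT replicate 2 and lost without any other library. It was also lost with sex as a covariate and with a replicate block. Epha7 had 76.2, 79.0 and 77.2 CPM in the Hand2_del libraries, against 59.7, 63.5 and 58.9 CPM in the Hand2_WT libraries, and the groups of the Tbx3 series overlapped. Age, allele, depth and gene differ together between both series and cannot be told apart.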

How the results depend on the processing

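The 3 counts of called guidance genes (2 in the Tbx3 comparison, 7 in the Hand2 comparison, 1 for the difference of effects) moved with several settings. Without a low-count filter they were 6, 11 and 2, and in DESeq2 6, 16 and 6. Both settings added Plxna2, Efna3, Plxna4 and Robo2 in the Tbx3 comparison. Over all genes, calls in the Tbx3 and Hand2 comparisons moved too, from 153 and 1836 to 504 and 1653 without the filter. In DESeq2 they were 551 and 3451, and with sex as a covariate 22 and 526. In limma-voom the Tbx3 count of guidance genes was 0, with 10 at an unadjusted p under 0.05. With sex as a covariate that count was 0 (8 unadjusted) and the Hand2 count 2, and the difference called Unc5b in place of Epha7. Leaving out 1 library gave 0 to 1, 2 to 9 and 0 to 1 guidance genes. The cause was not tested. Other normalization, a fit of 12 libraries and thinned counts kept each guidance gene count within 1.5 times.

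A replicate block gave 0 (9 unadjusted), 2 and 0 (10 unadjusted) called guidance genes. Over all genes it gave 87 calls in the Tbx3 comparison and 161 in the Hand2 comparison. Epha7 and Unc5c kept their Hand2 calls (edgeR adjusted p = 0.0426 and 0.0447). Same-numbered libraries correlated at 0.08, 0.02 and -0.02 in the Tbx3 series and at -0.19, 0.05 and 0.11 in the Hand2 series. Differently numbered libraries of the Hand2 series reached 0.24 and -0.28. The labels do not say what the numbers mark, and with 3 libraries per group these correlations cannot exclude a pairing.

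Over both wider lists, counted under the same settings after seeing the data, 2, 7 and 1 genes were called. DESeq2 gave 16 in the Hand2 comparison and 3 for the difference, limma-voom 0 for the difference, the replicate block 0, 1 and 0, and the sex covariate 0, 4 and 0. Leaving out 1 library gave 0 to 1, 2 to 9 and 0 to 2.

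Of 352 alternative values for the named genes, 269 kept direction and side of the threshold, 63 lost a call, 19 gained one and 1 reversed. That was the Slit1 difference, 0.11 without Hand2_WT replicate 2, and -0.35 without Hand2_WT replicate 1 at its lowest. Depth limits the lowest members, such as Dcc with a mean of 0.678 CPM in the libraries labelled Tbx3_del, and the Tbx3 series is the less deep.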

Other observations

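Genes that relay or process signals of guidance receptors made up a list of 34, of which 33 were tested in the Tbx3 comparison and 34 in the Hand2 comparison. In the Tbx3 comparison 2 rose and 0 fell, which is 6.06% of those tested beside 1.01% of all genes. An unadjusted edgeR p under 0.05 was found for 7, beside 2159 of all 15130 genes. DESeq2 called 3, beside 551 of all genes. Both genes that rose encode collapsin response mediator proteins, which act downstream of semaphorins on the cytoskeleton. Dpysl3 had 79.2, 88.8 and 79.3 CPM in the libraries labelled Tbx3_del, against 59.1, 48.6 and 52.3 CPM in the Tbx3_WT libraries (log2 fold change 0.63, SE 0.082, edgeR adjusted p = 0.022). Dpysl5 had 16.8, 18.2 and 17.9 CPM in the libraries labelled Tbx3_del, against 12.3, 10.2 and 11.9 CPM in the Tbx3_WT libraries (log2 fold change 0.62, SE 0.0991, edgeR adjusted p = 0.0402). The groups did not overlap in either gene. Dpysl3 lost its call without Tbx3_WT replicates 2 and 3 (0.0797 and 0.0917) and Tbx3_del replicates 2 and 3 (0.0694 and 0.0534), and Dpysl5 without any 1 of the 6 libraries (0.0518 to 0.148). With sex as a covariate the adjusted p was 0.215 for Dpysl3 and 0.273 for Dpysl5.

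In the Hand2 comparison 1 gene of this list rose and 3 fell, or 11.8% of those tested, near the 10.5% of all genes. The exchange factors Vav2 and Tiam1, which activate Rac, fell by 0.31 (edgeR adjusted p = 0.00448) and 0.26 (edgeR adjusted p = 0.0293) on the log2 scale. The tyrosine kinase gene Abl2 fell by 0.33 (edgeR adjusted p = 0.00917), and Grip1, an adaptor that binds ephrin-B ligands, rose by 0.38 (edgeR adjusted p = 0.0442). Vav2 had 53.3, 53.3 and 53.9 CPM in the Hand2_del libraries, against 68.4, 64.3 and 66.6 CPM in the Hand2_WT libraries, without overlap. Vav2 kept its call without each library in turn (0.00818 to 0.0379). Abl2 lost it without Hand2_WT replicate 3 (0.0523), Tiam1 without Hand2_WT replicate 3 (0.114) and Hand2_del replicates 1, 2 and 3 (0.0651, 0.0638 and 0.0869), and Grip1 without any 1 of the 6 libraries (0.0651 to 0.132).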
